A study of Mus musculus with 6 samples.

Results

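Open chromatin at the genes of the TEAD transcription factors and of their regulators in the Hippo pathway was examined in ATAC-seq peak lists of cultured mouse adipocytes. The genes were chosen by name, as Tead1, Tead2, Tead3, Tead4, Yap1, Wwtr1, Lats1, Lats2, Amotl2 and Ankrd1, which are 10 of 21938 protein-coding genes of the GENCODE annotation. A peak belonged to a gene if its summit lay between 50 kb before and 50 kb after the gene on mm10. The peaks of all libraries that overlapped were merged, and 247 of 194496 merged regions lay at these genes, over 1.66 Mb.

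All cultures came from the stromal vascular fraction of male wild-type C57BL/6J mice at 3 to 4 weeks of age and were differentiated for 7 days. Beige and white adipocytes came from subcutaneous inguinal fat, and brown adipocytes from brown adipose tissue. Beige and brown cultures shared a medium with insulin, 5 µM dexamethasone, 1 nM T3, 1 µM rosiglitazone and 0.5 mM IBMX, an inhibitor of phosphodiesterases. The white medium held insulin, 1 µM dexamethasone and 0.5 mM IBMX, without T3 and rosiglitazone. The methods of the study give white cultures a higher insulin dose than beige ones, whereas the labels give equal doses. Thus medium and cell state cannot be told apart between beige and white. Tissue of origin is the labelled difference between beige and brown. The study does not describe the brown libraries, so tissue and any difference in preparation or sequencing cannot be told apart there. There were 2 libraries a condition, so 6 in all. The study counts the beige and white libraries as biological replicates, whereas the labels of the brown libraries only number them, so their spread may be technical.

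TEAD proteins bind DNA but need a partner to activate transcription, and their best known partners are YAP (Yap1) and TAZ (Wwtr1). In the Hippo pathway a cascade of kinases ends in LATS1 and LATS2, which phosphorylate YAP and TAZ and keep them out of the nucleus. The pathway reads cell density, cell shape and the stiffness of the surroundings, and in fat cell precursors active YAP and TAZ are known to oppose adipocyte differentiation.

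The lists held 109143 to 127490 peaks per library at the authors' threshold of a q value under 0.05. They hold no read counts, so a missing peak says only that no peak passed that threshold, and gives no depth behind it. The study lists more mapped reads for the white than for the beige libraries, and the depth of the brown ones is not given in the sources used here. The strength of a peak was given as the percentile of its -log10 q among all peaks of its own list, where 100 is the strongest. In these bulk cultures, fewer cells of a type and less accessibility per cell cannot be told apart. The promoters of 8 of 8 adipocyte genes had a peak in all 6 libraries, although that of Adipoq ranked as low as percentile 5.86 in beige replicate 1. Ucp1, the uncoupling protein of thermogenic fat, carried a promoter peak in the brown libraries alone, with -log10 q of 3.91 and 2.97. It was 1 of 5 brown depot genes examined, and the other 4, Zic1, Lhx8, Ebf2 and Prdm16, had a promoter peak in all 6 libraries. Of 5 genes each for macrophages and blood cells, endothelial cells and progenitors, 3 had a promoter peak in all 6 libraries. Csf1r, Cdh5, Emcn and Ly6a had none in any library, and Ptprc had 1 in white replicate 1. How far other cell types contribute to the values below was not tested.

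All 10 genes had a peak within 1 kb of a start site in all 6 libraries, against a background of 64.2% of protein-coding genes. At a q value under 0.00001 it was 9 of 10, since the peak of Tead2 in brown replicate 2 had a -log10 q of 4.69. One sequence feature was counted under these promoter peaks. The genes were chosen for their part in the TEAD pathway and with earlier results of these data known. Amotl2 and Ankrd1 are known as a target and a readout of YAP, so the count is not independent of the choice. The core of the motif that TEAD proteins bind, CATTCC or its reverse complement GGAATG, lay within 100 bp of the strongest summit at 7 of the 10 promoters, those of Tead1, Tead3, Tead4, Yap1, Wwtr1, Lats2 and Ankrd1. Of 16146 regions with a peak in all 6 libraries at promoters of protein-coding genes, 7.85% held it. That share counts every such region, whereas each member is counted once. Further promoter regions of Tead2, Tead4, Yap1 and Amotl2 with a peak in all 6 libraries did not hold the core. The stretches with the matches at the 7 promoters are shown to make the arrangement visible. They are on the strand of the gene from 5′ to 3′ with the core in capitals.
Tead1: tcatttCATTCCtgtcctCATTCCgcacat
Tead3: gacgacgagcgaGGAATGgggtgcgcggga
Tead4: ctCATTCCagcgccCATTCCgtgCATTCCt
Yap1: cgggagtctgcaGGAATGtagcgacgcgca
Wwtr1: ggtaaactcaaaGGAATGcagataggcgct
Lats2: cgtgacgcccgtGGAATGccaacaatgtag
Ankrd1: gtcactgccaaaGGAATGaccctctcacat

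Tead1 held 2 matches within 30 bases (mm10 chr7:112679337-112679366, plus strand), starting at -14 and -2 bp from the nearest annotated start site and inside the UTR of another transcript. Tead4 held 3 matches in the same direction (chr6:128300456-128300485, minus strand), between 255 and 276 bp after the nearest start site in the UTR. The single matches of Tead3 (chr17:28350970-28350999), Yap1 (chr9:8004720-8004749) and Wwtr1 (chr3:57576029-57576058), all on the minus strand, lay upstream of the gene at -170, -141 and -136 bp. Those of Lats2 (chr14:57746102-57746131) and Ankrd1 (chr19:36120037-36120066), on the minus strand too, lay in the UTR at 2 and 45 bp after a start site. Tead2, Lats1 and Amotl2 had no match in this window. At Amotl2 the match came within 100 bp of the summit of 5 of the 6 libraries taken on their own.
Amotl2: gcagggtggcagGGAATGaatgccgcacgg

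The Amotl2 stretch (chr9:102717521-102717550, plus strand) lay in an intron at -135 bp from an inner start site. The count depended on the window. With 50 bp to each side 2 of 10 promoters held the core, or 20%, against 3.98% of all such regions, and with 250 bp it was 8 of 10, or 80%, against 18.8%. The longer form ACATTCC was found at Yap1 alone, so at 1 of 10 promoters against 1.96%. In RefSeq promoters of GRCm38.p6, taken from 250 bases before to 50 after each start, 8 of the 10 genes were listed, and 6 of these 8 held the core in at least 1 promoter, against 16.6% of 27025 genes. The AP-1 site TGANTCA, bound by JUN and FOS proteins, was at 0 of the 10 promoters and at 7.37% of all. The further promoter region of Yap1 (chr9:8003297-8004053) did hold an AP-1 site. CATTCC read on the other strand contains GGAA, the centre of ETS motifs, so a match does not tell these families apart. The promoter regions were rich in G and C, between 69.2% and 75.6%, except at Ankrd1 with 49.8%.

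The strongest promoter peaks of the members ranked much like those of other genes. The median over the 10 genes of the mean percentile was 92.7 in beige, 89.8 in white and 93.0 in brown, beside 93.9, 91.9 and 92.7 over all genes with a promoter peak in all 6 libraries.

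Among the DNA-binding factors, Tead4 (chr6:128224288-128300823, minus strand) had the highest promoter percentiles in white, 94.2 and 85.8, with 93.6 and 92.1 in beige and 92.7 and 93.5 in brown. The 3 conditions overlapped. Tead1 (chr7:112679318-112906807, plus strand) reached 95.2 and 89.7 in beige, 86.2 and 76.5 in white and 85.6 and 91.8 in brown, so that both beige libraries lay above both white ones while brown overlapped both. Tead3 (chr17:28331671-28350817, minus strand) showed the widest gap between beige and white, with 78.1 and 86.7 in beige, 59.0 and 69.2 in white and 83.6 and 75.8 in brown. Tead2 (chr7:45215753-45233644, plus strand) had the weakest promoter of the group, at 48.7 and 47.6 in beige, 47.3 and 46.5 in white and 51.5 and 24.7 in brown. Its lower beige library (47.6) lay above its higher white one (47.3) by less than the replicates of either condition differed. Its brown libraries spanned both conditions.

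Of the coactivators, Yap1 (chr9:7931999-8004596, minus strand) stood at 95.6 and 94.1 in beige, 87.8 and 91.8 in white and 95.5 and 95.6 in brown. White was below both other conditions without overlap of libraries. The strongest peak of white replicate 2 lay in a separate promoter region, 249 bp after a start site (chr9:8003297-8004053). In that region white was above beige, at 85.8 and 91.8 against 82.1 and 85.6, with 90.9 and 89.6 in brown. Wwtr1, the gene of TAZ (chr3:57455649-57575910, minus strand), had 92.5 and 94.6 in beige, 88.2 and 92.7 in white and 95.6 and 95.4 in brown, so brown lay above beige and beige overlapped white. The 2 kinase genes differed from each other. Lats1 (chr10:7681214-7716460, plus strand) was nearly level, with 93.2 and 91.9 in beige, 92.3 and 94.1 in white and 92.8 and 93.0 in brown. Lats2 (chr14:57689662-57758388, minus strand) had 95.2 and 96.7 in beige, 89.0 and 90.7 in white and 94.5 and 95.4 in brown, with white below the other conditions. The strongest Lats2 peak was not at the first start of the gene but at an inner start site about 12.2 kb downstream.

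Amotl2 (chr9:102716672-102733418, plus strand) encodes an angiomotin-like scaffold that binds YAP and is itself a target of YAP and TEAD. Its promoter peak ranked among the strongest of the group, at 96.2 and 97.3 in beige, 95.0 and 90.6 in white and 93.5 and 97.8 in brown, so that beige lay above white and brown overlapped both. Ankrd1 (chr19:36111961-36120099, minus strand), an ankyrin repeat protein used widely as a readout of YAP activity, had 83.4 and 82.4 in beige, 84.3 and 75.4 in white and 90.5 and 87.4 in brown. Brown was above both other conditions, and beige and white overlapped.

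**Figure D1:**
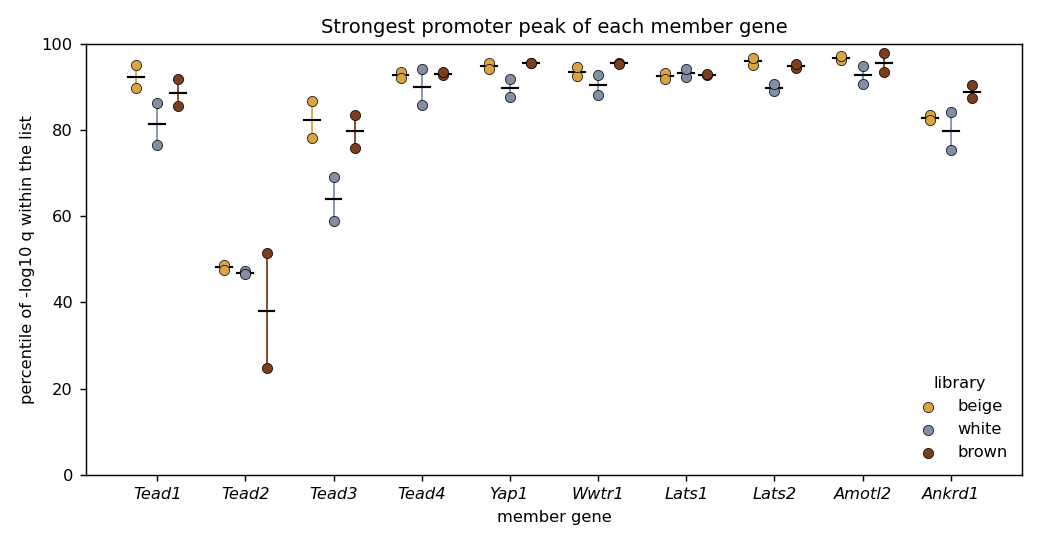
Percentile of the -log10 q of the strongest promoter peak within its list (vertical axis) for each gene (horizontal axis). Points are the single libraries of beige, white and brown adipocytes and black bars their means, and a reader should see that Tead2 lies far below the rest in all 6 libraries while Tead3 has the widest gap between beige and white.

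A promoter was said to be ranked apart when both libraries of one condition had a higher percentile than both of another. With 2 libraries against 2, no two-sided exact permutation p below 0.333 is possible, so such calls were counted and compared with all genes and not tested. Beige was ranked above white at 6 of 10 promoters, those of Tead1, Tead2, Tead3, Yap1, Lats2 and Amotl2, against 35.6% of 14089 genes. White was above beige at 0 of 10, against 17.3%. Brown was above beige at 2 of 10, Wwtr1 and Ankrd1, against 15.1%, and beige was above brown at 0 of 10, against 34.5%. Ranking by fold enrichment in place of -log10 q changed these counts to 4, 1, 4 and 0, and equally long lists changed them to 5, 0, 3 and 0. Shares over all genes were not computed for these settings or with a library left out, so these counts have no background. Leaving out white replicate 2 gave 7 promoters with beige above white and 2 with white above beige, and leaving out beige replicate 2 gave 4 with beige above brown. All these counts take only the strongest promoter peak of each gene. Of all regions at member promoters with a peak in all 6 libraries, 8 had beige above white and 2 had white above beige. The 2 were the separate Yap1 region and a region at an inner start of Tead4 (48.2 and 69.4 in beige, 70.2 and 78.8 in white).

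The whole loci carried a similar number of peaks in the 3 conditions. They held 170 and 188 peaks in the beige libraries (179 ± 12.7, SD, n = 2), 179 and 173 in the white ones (176 ± 4.24) and 171 and 159 in the brown ones (165 ± 8.49). The beige counts overlapped those of white and brown, and both white counts were above both brown ones. As shares of their lists, white had 0.149% and 0.145% and brown 0.15% and 0.146%, so these overlapped. Beige had 0.143% and 0.147%. Of the 247 merged regions, 119 lay in introns, 59 between genes, 58 at promoters, 6 in coding exons and 4 in UTRs. Only 19 were at the promoters of the members, and 33 were at promoters of other protein-coding genes within the flanks.

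The density of regions differed between genes. Tead2, which sits among close neighbours, had 24 regions, or 20.4 per 100 kb, and 12 of them were at promoters of other coding genes. Tead4 had the lowest density, with 16 regions or 9.06 per 100 kb, and the largest share found in all 6 libraries, 62.5%. Tead1, the longest gene of the group with 227490 bp, had the most regions, 48, of which 35 lay inside the gene. Wwtr1 followed with 43 and Yap1 with 26. Lats1 had 14 regions, of which 4 were in all 6 libraries, and Ankrd1 had 11.

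**Figure D2:**
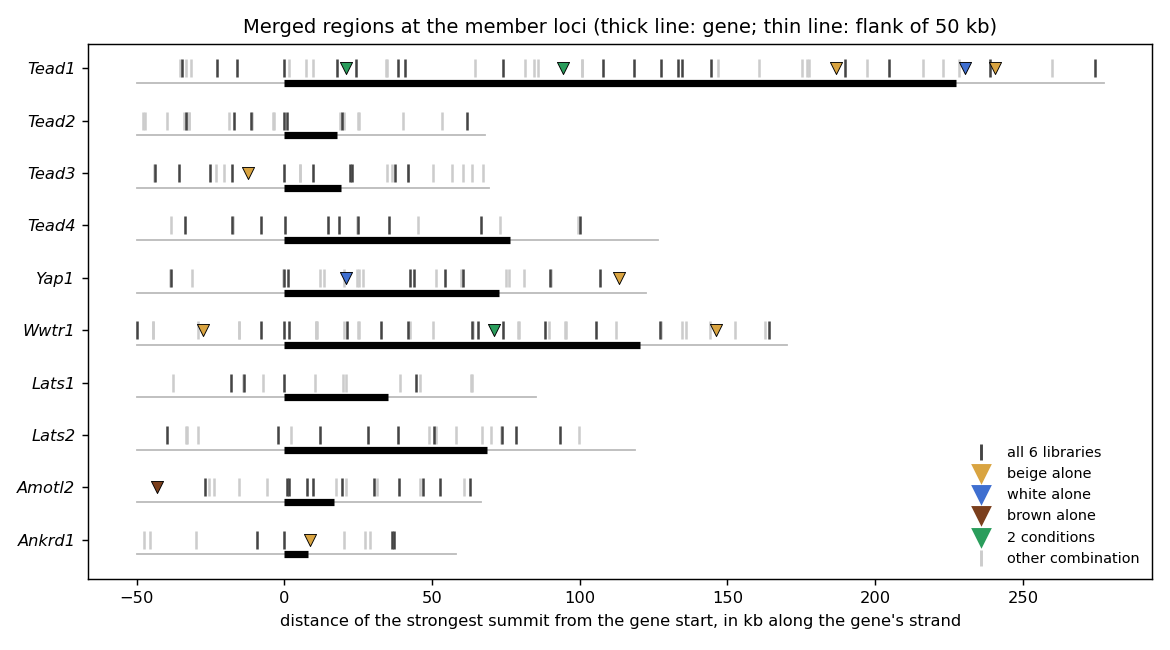
Merged regions at the 10 genes by the distance of their strongest summit from the gene start in kb along the strand of the gene (horizontal axis), with the genes in rows. Dark ticks are the 97 regions with a peak in all 6 libraries, light ticks other combinations and triangles the 13 regions with a peak in both libraries of 1 or 2 conditions and in no other library, 5 of which lie at Tead1.

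A peak was present in all 6 libraries in 97 of the 247 regions, or 39.3%, against 30.2% of all merged regions and 32.4% of those within 50 kb of any coding gene. Regions with a peak in both libraries of 1 condition and in no other library were few. Beige had 7 of them, or 2.83% against 1.94% of all regions, white had 2, or 0.810% against 1.22%, and brown had 1, or 0.405% against 0.878%. Beige and brown together, but not white, had 1 region against 1.25%, beige and white had 1 against 1.16%, and white and brown had 1 against 0.243%. These shares were close to the background. The remaining 137 regions had a peak in other combinations, of which 87 in a single library. The classes are small because they need both libraries of a condition, and they grew by construction when 1 library was left out. Beige alone rose to 24 regions without beige replicate 1, 15 without beige replicate 2 and 12 without white replicate 2. White alone came to 17 and 20 without white replicate 1 or 2 and to 5 without beige replicate 2. Brown alone came to 18 and 15 without brown replicate 1 or 2 and to 2 without beige replicate 1 or white replicate 1. The shares over all regions were not computed with a library left out.

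Both regions of beige alone at Tead1 were the strongest of their class. The first was intronic, 186.6 kb after the gene start (chr7:112865786-112866057), with -log10 q of 19.6 and 14.5 in the 2 beige libraries. The second lay beyond the 3′ end of the gene (chr7:112919964-112920143), with 14.8 and 19.2. Both ranked between percentiles 54.3 and 65.5 of their lists, so they were well above the threshold. The other regions of beige alone were weaker. They lay 12.4 kb upstream of Tead3 at the promoter of Tulp1 (3.41 and 4.47), beyond the end of Yap1 (5.40 and 7.98), on both sides of Wwtr1 (4.94 and 6.41 in an intron of Tm4sf4, and 3.28 and 7.97 upstream) and just beyond the end of Ankrd1 (4.80 and 9.98).

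White alone had a peak beyond the end of Tead1, with -log10 q of 3.34 and 1.99, near the threshold. It had another in an intron of Yap1 (chr9:7983765-7983988), with 5.73 and 11.3. Tead1 also held an intronic region of beige and brown, with 6.16 and 7.93 in beige and 8.98 and 6.11 in brown, and an intronic region of white and brown with a TEAD core, with 2.78 and 6.03 in white and 7.46 and 5.29 in brown. Wwtr1 held an intronic region of beige and white with an AP-1 site, with 8.26 and 9.07 in beige and 22.6 and 7.24 in white.

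The single region of brown alone lay 43.1 kb upstream of Amotl2 between genes (chr9:102673251-102673743), with -log10 q of 16.9 and 9.28. It held both a TEAD core and an AP-1 site within 100 bp of its summit, and it is shown because no other region of 1 condition at these genes held both. In the stretch chr9:102673533-102673629 on the plus strand both matches are in capitals.
Amotl2 upstream region: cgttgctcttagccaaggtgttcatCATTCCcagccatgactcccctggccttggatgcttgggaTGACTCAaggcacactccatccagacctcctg

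**Figure D3:**
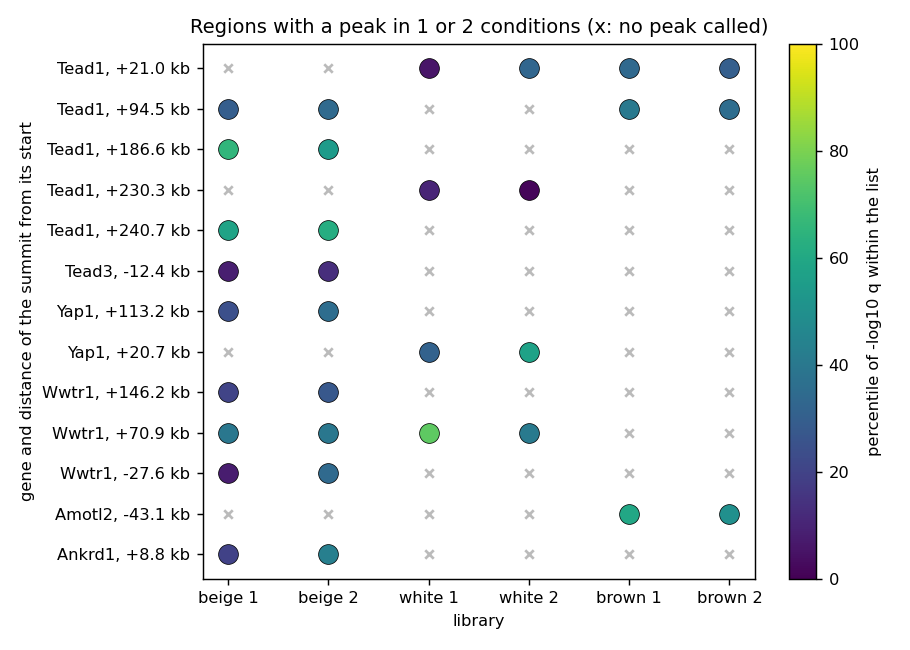
Regions with a peak in both libraries of 1 or 2 conditions and in none of the others (rows, with the distance of the summit from the gene start in kb) across the 6 libraries (columns). Colour is the percentile of -log10 q within the list and crosses mark libraries without a peak, and the brightest regions of beige alone are both at Tead1.

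The 97 regions present everywhere were compared by rank. Beige was above white, by both libraries against both, in 36 regions or 37.1%, against 27.0% of all 58714 such regions. White was above beige in 11 regions or 11.3%, against 21.3%. Brown was above beige in 12 or 12.4%, against 18.4%, and beige above brown in 34 or 35.1%, against 32.7%. The brown lists were shorter than the beige ones, and with equally long lists the counts came to 18 and 25, or 18.6% and 25.8%, against 25.5% of all regions in either direction. Over all regions the lean towards beige was then lost, and at the members it was smaller. The median difference in percentile between beige and white was 3.1 over the member regions and 0.992 over all regions. Leaving out 1 white library raised the shares in both directions, at the members and over all regions. Without white replicate 1, beige was above white in 55 regions and white above beige in 31, which is 54.5% and 30.7% against 45.1% and 35.0% of all regions. Without white replicate 2 the counts were 54 and 34, or 52.9% and 33.3% against 42.4% and 37.8%. Without beige replicate 2 they were 39 and 21, or 38.6% and 20.8% against 34.4% and 33.1%. Of all libraries left out, beige replicate 2 brought beige above white closest to its background. For brown above beige, leaving out 1 beige or brown library gave between 21 and 24 regions, or 21.2% to 23.8%, against 27.4% to 32.1% of all regions. Beige above brown came to 53 without beige replicate 1, or 54.6% against 47.8%, and to 56 without brown replicate 2, or 53.8% against 44.8%.

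Among genes, Tead3 had beige above white in 6 of 10 regions and white above beige in 0, and Tead4 had 5 and 1 of 10. Tead1 had 8 and 3 of 19. At the coactivators the directions were even, with 2 and 2 of 9 regions at Yap1 and 2 and 2 of 14 at Wwtr1, where brown was above beige in 4. Lats2 had 3 and 2 of 9, Amotl2 4 and 1 of 11, Tead2 3 and 0 of 7, Ankrd1 2 and 0 of 4, and Lats1 1 and 0 of 4. These counts are by locus, and some regions with beige above white were promoters of neighbours alone. They were Fance and Rpl10a at Tead3, Gm10010 at Tead4 and Katna1 at Lats1, the only such region there. At Yap1 the neighbour was Cfap300, and at Ankrd1 it was Rpp30.

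Some regions with wide gaps are described here, which were chosen after their values were seen. The widest gap with beige above white was in an intron of Tead4 (chr6:128282177-128282666), 18.5 kb after the gene start, at percentiles 80.6 and 79.3 in beige, 41.5 and 15.6 in white and 76.0 and 72.5 in brown. White stood apart from both other conditions. The region held a TEAD core and an AP-1 site, shown in capitals in the stretch chr6:128282269-128282404 on the minus strand.
Tead4 intronic region: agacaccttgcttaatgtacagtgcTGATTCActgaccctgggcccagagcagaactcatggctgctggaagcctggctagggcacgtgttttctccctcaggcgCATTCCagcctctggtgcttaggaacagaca

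An intronic region of Tead1 (chr7:112753037-112753776) had a similar order, with 74.8 and 84.3 in beige, 51.6 and 9.15 in white and 59.9 and 69.5 in brown. The opposite order was found in an intron of Wwtr1 (chr3:57542905-57543354), with 15.8 and 33.7 in beige, 65.4 and 71.1 in white and 45.7 and 62.9 in brown. An intronic region of Yap1 (chr9:7960257-7960727) likewise had 8.74 and 52.0 in beige, 68.5 and 76.2 in white and 54.7 and 18.6 in brown. White was the highest condition at both coactivators here, although the replicates of beige and brown at Yap1 were far apart. Lats2 also had such an intronic region (chr14:57729892-57730966), with 45.7 and 57.5 in beige, 86.2 and 79.6 in white and 61.5 and 39.1 in brown.

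**Figure D4:**
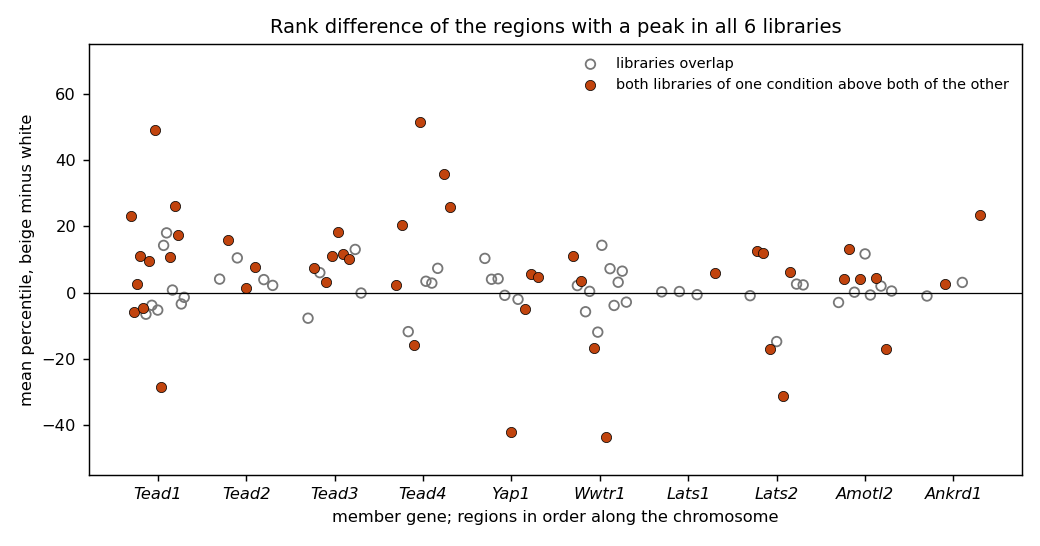
Difference of the mean percentile, beige minus white (vertical axis), for the 97 regions with a peak in all 6 libraries, by gene and in their order along the chromosome. Filled points are the 36 regions with both beige libraries above both white ones and the 11 with the reverse, and the filled points below the line farthest from it are at Wwtr1 and Yap1.

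Over all regions at the members the sequence motifs were near the background. A TEAD core lay within 100 bp of the strongest summit in 38 of 247 regions, or 15.4% against 14.1% of all regions, and an AP-1 site in 40, or 16.2% against 21.2%. Both together were found in 6 regions, or 2.43% against 3.26%. The difference from the background at the promoters of these genes was therefore not found over their loci. Of the 36 regions with beige above white, 9 held a TEAD core, or 25% against 12.1% of all regions so ranked, and 4 of the 9 were at promoters of the members. Of the 11 with white above beige, 0 held a TEAD core, against 16.4%, and 6 held an AP-1 site, or 54.5% against 33.7%. These are counts of few regions and were not tested.

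The strongest region of a locus was rarely the promoter of the member itself. By the mean percentile over the 6 libraries this was so for Wwtr1 alone, at 93.2. At Tead4, Tead3, Lats1, Lats2, Yap1 and Ankrd1 it was a promoter of a neighbour, Gm10010 (98.8), Fance (94.2), Pcmt1 (97.8), Sap18 (96.4), Cfap300 (94.2) and Rpp30 (93.3) respectively. At Amotl2 it was a region in an intron of Gm5627, 30.3 kb after the start of Amotl2, which ranked between 95.8 and 98.2 in all libraries (mean 96.9). At Tead1 it lay in an intron of 2310014F06Rik upstream of the gene (91.6), and at Tead2 it lay between genes (86.9).

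A list of 30 further Hippo pathway genes was examined in the same way. Of these, 28 had a promoter peak in all 6 libraries, against 64.2% of protein-coding genes. Dchs1, a large cadherin upstream of the kinases, had a promoter peak in 5 libraries and lacked it in white replicate 2, and the TEAD cofactor gene Vgll1 had none. The loci of the list held 762 regions. Of these 33.9% were present in all 6 libraries, against 30.2% of all regions and 32.4% of those within 50 kb of any coding gene. There were 17 in beige alone, 8 in white alone and 10 in brown alone, or 2.23%, 1.05% and 1.31%. Over all regions these shares were 1.94%, 1.22% and 0.878%. Map4k4, a kinase that acts beside MST1 and MST2, had the most regions of 1 condition, 4, followed by the cadherin gene Fat1 with 3, all of beige. Stk4, Frmd6, Taok2, Taok3, Amotl1, Vgll2, Ccn2 and Crim1 each had 2.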

How the data were processed

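The data were 6 lists of ATAC-seq peaks. For beige and white the authors trimmed adaptors with Trimmomatic, aligned reads to mm10 with BWA and called peaks in each library with MACS2 at a q value under 0.05. The labels of the brown libraries name BWA and MACS2 on mm10, and all their peaks passed the same q value. The deposited lists give each summit's fold enrichment, a ratio over the local background, and its -log10 q. Intervals with several summits were counted once, at the highest -log10 q. The authors' score and summit columns were deposited too, and only the summit was used.

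Peaks overlapping by 1 bp were merged over libraries. Genes and start sites came from GENCODE M21, and sequences from GRCm38.p6. Motifs were matched in either orientation within 100 bp of the strongest summit. Computation used Python 3.11.15 with numpy 2.4.6, pandas 2.3.3 and matplotlib 3.10.9, and was tested on simulated data. The members and lists were chosen with earlier results of these data known. All 10 members are described, with every region of 1 or 2 conditions and the highest region of each gene. Of 30 other Hippo genes, those without a promoter peak in all 6 libraries are named, and the 5 with the most regions of 1 condition, extended by ties. No test between conditions was made. Alternatives were other thresholds, equally long lists, flanks, promoter distances, windows, ranking by fold and leaving out each library. The alternatives for promoter ranks and promoter motifs were added after seeing the data.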

Additional observations from a re-analysis of the deposited data

How the results depend on the processing

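No paired analysis was possible because the labels tie no library of a condition to a library of another, and the values are counts and ranks to which no test was applied. All 10 genes kept a promoter peak in all 6 libraries under every alternative run for this count, including promoter distances of 500 bp and 3 kb, except at a q value under 0.00001, where it was 9. Stricter thresholds moved some values. At a q value under 0.01, 1 region remained in white alone. At a q value under 0.00001, white was above beige in 6 regions, or 7.5% against 17.2% of all regions. At this threshold beige was above brown at 1 promoter, and the median promoter percentiles were 91.0, 86.4 and 90.9 in beige, white and brown. With equally long lists, brown alone had 2 regions and the white median was 88.8. With ranks by fold enrichment the medians were 80.1, 76.0 and 85.3, with 1 promoter with white above beige and 4 with brown above beige. Fewer or more regions entered with other flanks. With 20 kb, beige alone had 4 regions and brown alone 0, and beige was above brown in 22, or 30.1% against 32.7% of all regions. With 100 kb there were 281, 276 and 265 peaks per library in beige, white and brown. There were 157 regions in all 6 libraries, 23 in some conditions and 4 in brown alone. Beige was above white in 61, or 38.9% against 27% of all regions, and white above beige in 21, or 13.4% against 21.3%. Brown was above beige in 20, or 12.7% against 18.4%, and beige above brown in 56, or 35.7% against 32.7%. The TEAD core was in 7.29% of regions and at 2 promoters with 50 bp to each side of the summit, in 30.0% of regions with 250 bp, where the AP-1 site was in 22.7%, and its longer form was in 2.83% and at 1 promoter.

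Leaving out 1 library at a time gave 27 to 40 regions in only some conditions (13 with all), 7 to 24 in beige alone, 2 to 20 in white alone and 1 to 18 in brown alone. Beige was above white in 36 to 55 regions, white above beige in 11 to 34, brown above beige in 12 to 24 and beige above brown in 34 to 56. As shares of the member regions these were 36.5% to 54.5%, 11.2% to 33.3%, 11.9% to 23.8% and 33.3% to 54.6%. Over all regions they were 26.4% to 45.1%, 21.3% to 37.8%, 18.2% to 32.1% and 32.1% to 48.1%. At promoters, white was above beige at 0 to 2, brown above beige at 2 to 5 and beige above brown at 0 to 4. The white median percentile was 88.0 to 89.8. Fewer libraries in a condition loosen each of these calls by construction. Shares over all regions for the classes, and over all genes for the promoter ranks, were not computed under the alternatives. The cause of the other changes was not tested.

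The lists hold no reads, so small differences in accessibility below or above the threshold could not be measured.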

Other observations

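The target genes of YAP and TEAD outside the 10 genes had promoter peaks of unequal rank. Ccn1, which encodes the matrix protein CYR61, was at percentiles 90.9 and 91.1 in beige, 89.9 and 85.9 in white and 93.6 and 96.4 in brown. Ccn2, which encodes CTGF, was at 84.1 and 82.9 in beige, 84.2 and 86.8 in white and 90.7 and 90.2 in brown. At both genes the brown libraries lay above all 4 others, as they did at Ankrd1. The receptor gene Axl had the same order by a small margin over white replicate 1, with 57.5 and 56.1 in beige, 66.8 and 18.1 in white and 67.7 and 68.9 in brown, where white replicate 2 was far below the rest. Crim1 had 69.2 and 72.6 in beige, 84.3 and 76.9 in white and 67.9 and 72.7 in brown, with white the highest. Ajuba had 92.6 and 94.8 in beige, 77.5 and 88.0 in white and 91.7 and 91.9 in brown, with beige above all 4 others. Brown lay above beige at 15.1% of all genes with a promoter peak in all 6 libraries. The share with brown above both beige and white was not computed, so the stricter order has no background. These genes were picked out after their values were seen, and the differences were not tested.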
